A study of Mus musculus with 8 samples.

Results

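Skeletal muscle genes were followed in corneal RNA as a set of 36 named genes, which encode the proteins of the sarcomere, of calcium release, of energy supply and of muscle regulation, out of 18193 genes measured. Members were taken by symbol. Each was represented by the probe set that the platform annotation assigns to that symbol alone, with the highest mean over the arrays where a gene had several. All 36 were measured, with no filter on dim values, and 13 of them had more than 1 such probe set, 59 in all. The RNA was total RNA, extracted with TRizol per the titles, from mouse corneas on one-colour Affymetrix arrays. A group of 4 arrays, called TGFB here, comes from mice overexpressing TGF-beta, and the other group of 4 from wildtype animals of the same litters. Neither the TGF-beta gene nor its promoter, its source tissue or the animals' age is named in the labels, and overexpression itself was not checked here. Whether arrays come from different mice is also not stated, so the p-values reflect the spread from array to array, which may be technical. Array numbers 1 to 4 follow record order and form no pairs.

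A striated muscle fibre contracts when myosin heavy chains of the thick filament pull on actin of the thin filament, with troponin and calcium as the switch. Muscle makes these parts from gene families whose members follow each other in time. Embryonic and perinatal myosins, cardiac actin, cardiac troponin T and the gamma subunit of the acetylcholine receptor mark growing or regenerating fibres, and adult fast and slow isoforms replace them. Fast fibres use parvalbumin and fast myosins, while slow fibres use the beta myosin heavy chain and its light chains and are rich in myoglobin. The cornea has no striated muscle of its own, and the muscles nearest to it move the eye and the lids.

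The cornea was present on every array by its stromal markers, with signals of the keratocyte proteoglycan genes Kera between 2073 and 8110 and Lum between 3728 and 8788. The epithelial keratin Krt12 ran from 289 in TGFB 1 and 562 in wildtype 4 to 5766 in wildtype 3. Wildtype 4 also had the highest 3'/5' ratio for the control gene Gapdh, a measure of RNA integrity that climbs as transcripts break, at 6.41 against 2.19 to 4.31 elsewhere. Markers of other tissues also differed between arrays, and some that move with a result are given with their values. In bulk RNA such as this, fewer cells of a type and less RNA per cell cannot be told apart.

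Muscle transcripts were present on all arrays of both groups, and no member passed the test between them. Limma (lmFit and eBayes on log2(signal + 16), with Benjamini-Hochberg adjustment over all genes) called 0 of 36 members at adjusted p under 0.05, and 0 of 18193 genes (0%). At an unadjusted p under 0.05 stood 2 members, myoglobin (Mb) and parvalbumin (Pvalb), both with lower means in TGFB, beside 7.08% of all genes in either direction. The groups did not overlap for 1 member, Pvalb, beside 3.94% of all genes. A lower mean in TGFB was seen for 19 of 36 members, beside 52.6% of all genes, and for 12 without wildtype 2. The median difference over the members was -0.021 on the log2 scale, beside -0.014 over all genes tested. These shares were close to the background of all genes.

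**Figure D1:**
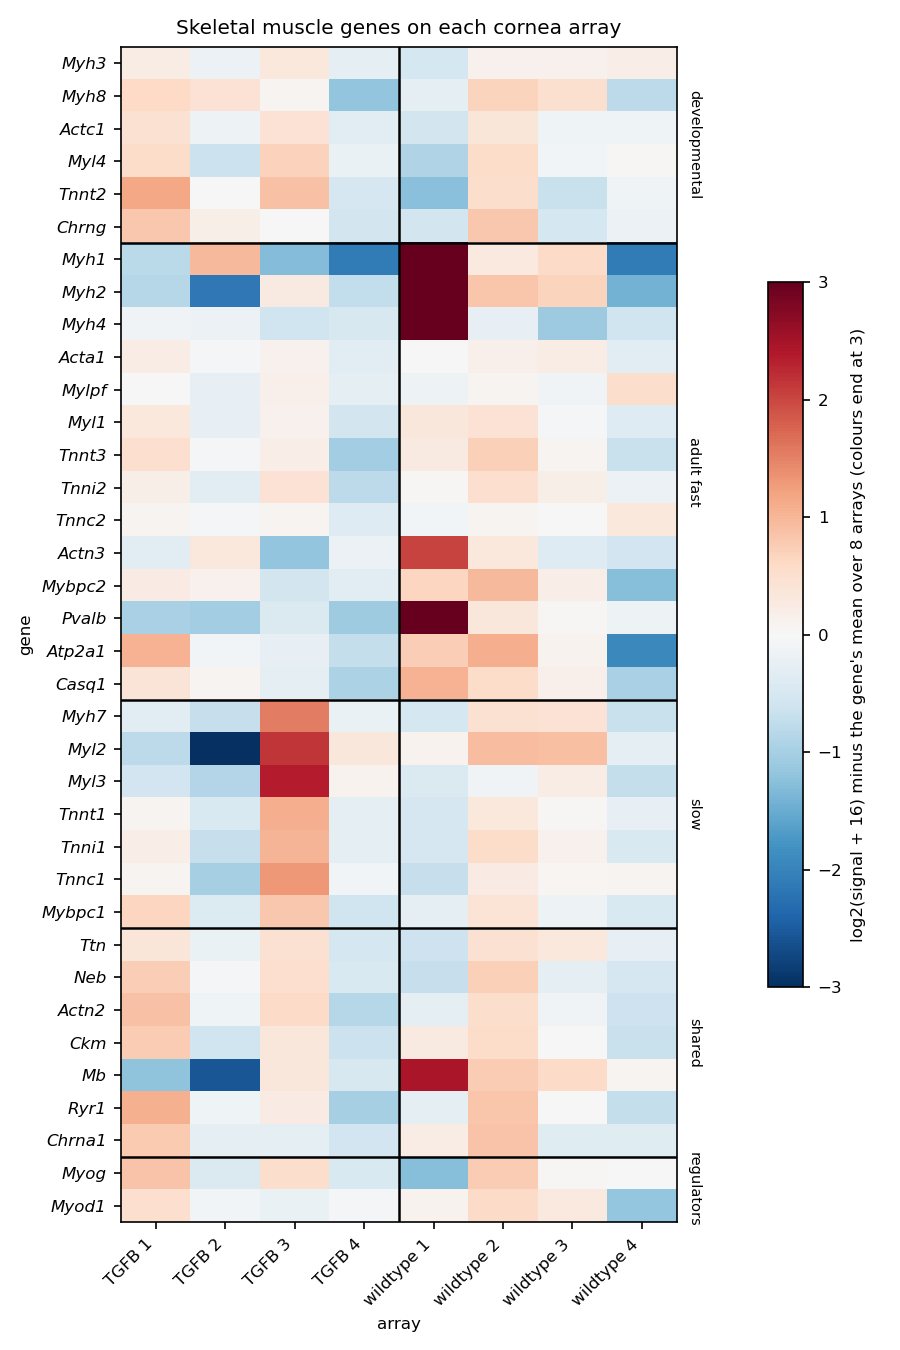
Each cell shows log2(signal + 16) of a muscle gene (row) on an array (column) minus that gene's mean over the 8 arrays, with colours ending at 3 in size, and genes ordered by the role of the isoform. Wildtype 1 stands out in the adult fast myosins, Pvalb and Mb, and TGFB 3 in the slow isoforms, where it is the highest array for all 7 genes.

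Among the thick filament genes, the developmental myosin heavy chains were bright on every array of both groups. Signals of Myh3, the embryonic myosin heavy chain, were 6147, 4665, 6628 and 4354 in TGFB 1 to 4 and 3669, 5786, 5762 and 6107 in wildtype 1 to 4. Those of Myh8, the perinatal chain, were 7184, 6343, 5005 and 2065 in TGFB 1 to 4 and 3848, 7541, 6539 and 2739 in wildtype 1 to 4. The groups overlapped for both genes. Wildtype 1 was the lowest array for Myh3, and TGFB 4 and wildtype 4 were the lowest in their groups for Myh8. Myh3 had a log2 difference of 0.037 (SE 0.21, limma adjusted p = 0.985), with a 95% interval from -0.45 to 0.52, and Myh8 had a log2 difference of -0.035 (SE 0.44, limma adjusted p = 0.993). The small differences turn sign with the choice of arrays: without wildtype 1 that of Myh3 was -0.13, and without TGFB 4 that of Myh8 was 0.35.

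The adult fast heavy chains gave a different picture, with 1 array far above the rest. Myh1, the chain of IIx fibres, had signals of 85.1, 335, 56.3 and 25.7 in TGFB 1 to 4 and 3936, 204, 249 and 25.5 in wildtype 1 to 4. Myh2, the chain of IIa fibres, had 144, 49.3, 332 and 157 in TGFB 1 to 4 and 2979.7, 500.0, 448 and 93.0 in wildtype 1 to 4. Myh4, the chain of IIb fibres, had 17.1, 15.2, 7.52 and 9.18 in TGFB 1 to 4 and 331, 14.0, 0.510 and 7.51 in wildtype 1 to 4. Wildtype 1 was 11.7 times the next highest array for Myh1, 5.96 times for Myh2 and 19.4 times for Myh4, while the other 7 arrays overlapped between the groups. The signal of Myh4 was at or below 17.1 on those arrays, at the dim end of the scale. Myh1 had a log2 difference of -1.62 (SE 1.23, limma adjusted p = 0.828) and Myh2 a log2 difference of -1.74 (SE 0.90, limma adjusted p = 0.753), and without wildtype 1 the differences were -0.40 and -0.90. Myh4 had a log2 difference of -0.68 (SE 0.83, limma adjusted p = 0.894), which turned to 0.30 without wildtype 1. In RefSeq's GRCm38.p6, Myh3, Myh2, Myh1, Myh4, Myh8 and Myh13 follow each other on chromosome 11 with no other protein-coding gene between neighbours. The 3 genes that peaked in wildtype 1 thus lie between the embryonic and the perinatal chain, whose signals there were 0.634 and 0.588 times the median of the other wildtype arrays. Myh13 was not analysed here. These chains are close relatives, and how much signal their probe sets share was not tested.

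**Figure D2:**
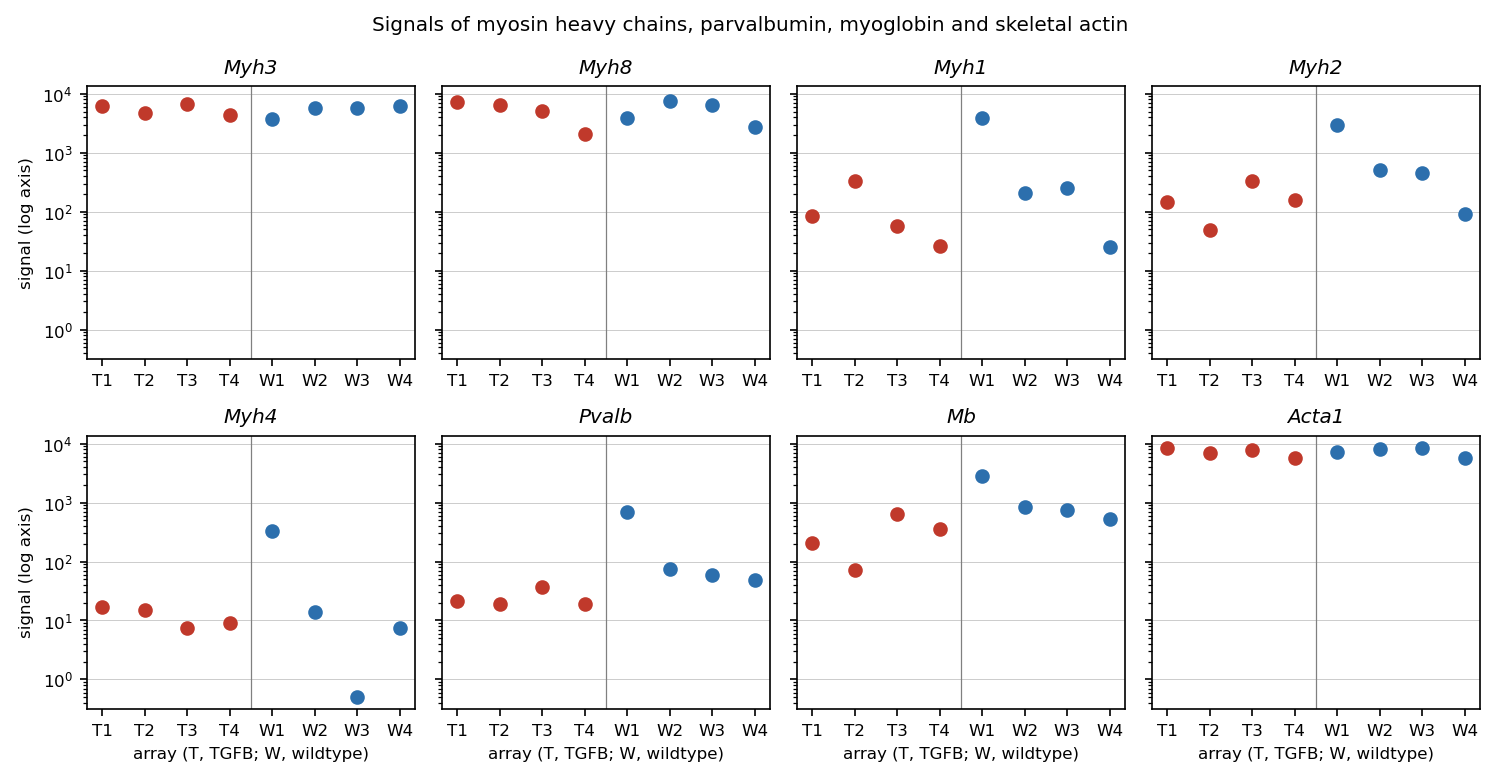
Signals of 8 muscle genes on each array, on a log axis, with TGFB arrays (T) in red and wildtype arrays (W) in blue; each point is 1 array, and levels are to be compared between arrays of a gene, not between genes. Myh1, Myh2, Myh4, Pvalb and Mb are highest in wildtype 1, where Myh3 is lowest, and Acta1 varies by no more than 1.49-fold over all arrays.

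The promoters of Myh3 and Myh1 are shown as an embryonic and an adult gene of the same cluster with opposite behaviour in wildtype 1. Both are RefSeq windows of GRCm38.p6, from 250 bases before to 50 after the annotated start, on the plus strand, at chr11:67078050-67078349 for Myh3 and chr11:67199852-67200151 for Myh1. Capitals mark matches, on either strand, to an E-box (CANNTG, the site of myogenic bHLH factors), a MEF2 box (searched with any last base), a CArG box or the TATA box (TATAAA). The first TATA box match of Myh1, on the minus strand, lies inside a MEF2 box, and an E-box match can be of the form CAGCTG, which is also counted by itself.
Myh3: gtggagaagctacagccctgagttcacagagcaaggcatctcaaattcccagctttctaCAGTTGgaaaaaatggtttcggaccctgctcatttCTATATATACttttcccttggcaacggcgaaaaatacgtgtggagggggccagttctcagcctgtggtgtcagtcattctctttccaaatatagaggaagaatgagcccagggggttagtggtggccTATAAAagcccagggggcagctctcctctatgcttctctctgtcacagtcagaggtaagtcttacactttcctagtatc
Myh1: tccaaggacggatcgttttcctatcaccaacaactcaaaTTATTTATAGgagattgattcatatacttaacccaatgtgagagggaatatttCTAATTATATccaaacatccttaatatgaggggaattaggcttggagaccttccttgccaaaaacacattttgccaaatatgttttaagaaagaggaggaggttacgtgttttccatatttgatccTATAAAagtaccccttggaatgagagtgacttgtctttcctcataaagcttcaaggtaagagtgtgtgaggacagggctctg
Both windows carry a TATA box, at position -29 from the start in Myh3 and -32 in Myh1. The Myh3 window holds 1 E-box and 1 MEF2 box, the Myh1 window 2 MEF2 boxes and no E-box. Windows were found for 31 of the 36 members, 6 of them with several, and a gene was counted when any window held the motif. The E-box was in 27 members (87.1%) beside 75% of 27025 genes, and CAGCTG in 14 (45.2%) beside 18.3%. The MEF2 box was in 9 (29%) beside 8.76%, the CArG box in 4 (12.9%) beside 1.81%, and the TATA box in 10 (32.3%) beside 15.7%. A match says only that the letters are there. All 5 myosin heavy chains of the cluster that were measured (Myh1, Myh2, Myh3, Myh4 and Myh8) hold both the MEF2 box and the TATA box.

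Actins build the thin filament, and Acta1 had the smallest ratio of highest to lowest signal of the 36 members. Acta1, the skeletal alpha actin of adult fibres (fast and slow alike, set here with the adult fast genes), had signals of 8304, 6841, 7844 and 5613 in TGFB 1 to 4 and 7109, 7991, 8340.2 and 5787 in wildtype 1 to 4. Actc1, the cardiac alpha actin that developing skeletal muscle also makes, had 6513, 4285, 6479.7 and 3857 in TGFB 1 to 4 and 3266, 6165, 4394 and 4345 in wildtype 1 to 4. Acta1 differed by at most 1.49-fold between any 2 arrays, and the arrays of both groups overlapped. Actc1 was lowest in wildtype 1 and highest in TGFB 1, TGFB 3 and wildtype 2. The differences were -0.033 (SE 0.18, adjusted p = 0.985) for Acta1 and 0.21 (SE 0.25, adjusted p = 0.885) for Actc1, with 95% intervals from -0.44 to 0.37 and from -0.34 to 0.77. That of Acta1 turned to 0.078 without TGFB 4. The within-array contrast of log2(signal + 16), Actc1 minus Acta1, is read only between arrays, since the probe sets differ. It was -0.35, -0.67, -0.28 and -0.54 in TGFB 1 to 4 and -1.12, -0.37, -0.92 and -0.41 in wildtype 1 to 4. The lowest value was that of wildtype 1, with wildtype 3 next.

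The promoters of these 2 actins are shown because both are among the 4 members with a CArG box, the site of serum response factor. The windows lie on the minus strand, at chr2:114052826-114053125 for Actc1 and chr8:123894726-123895025 for Acta1, with the same build, length and capitals as above.
Actc1: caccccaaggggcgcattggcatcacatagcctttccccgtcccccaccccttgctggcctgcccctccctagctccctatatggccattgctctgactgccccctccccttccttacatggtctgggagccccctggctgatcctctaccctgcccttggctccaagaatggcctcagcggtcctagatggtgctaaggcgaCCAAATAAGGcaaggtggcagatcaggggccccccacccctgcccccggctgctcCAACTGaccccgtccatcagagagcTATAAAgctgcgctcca
Acta1: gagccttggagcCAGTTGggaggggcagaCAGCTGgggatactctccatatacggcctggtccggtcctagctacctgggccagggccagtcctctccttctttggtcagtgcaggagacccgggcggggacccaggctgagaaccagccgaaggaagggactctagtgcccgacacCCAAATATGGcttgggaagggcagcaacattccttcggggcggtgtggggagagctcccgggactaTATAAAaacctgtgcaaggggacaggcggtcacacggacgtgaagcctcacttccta
The CArG box starts at position -47 in Actc1 and -73 in Acta1, and Acta1 also holds CAGCTG at -221. The TATA box match starts at position 34 in Actc1, after the annotated start, and at -7 in Acta1. All positions are counted from the annotated start, and whether transcription begins there was not tested. The other members with a CArG box were Myh4 and Myl3.

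Myosin light chains sit on the neck of the heavy chain, and developing and adult muscle use different ones. Myl4, the embryonic and atrial chain, had signals of 2738, 1192, 3026 and 1618 in TGFB 1 to 4 and 994, 2738, 1777 and 1914 in wildtype 1 to 4. The fast essential chain Myl1 had 5230.3, 3517, 4592 and 2847 in TGFB 1 to 4 and 5304, 5586, 3989 and 3187 in wildtype 1 to 4. The fast regulatory chain Mylpf had 7233, 6017, 7936 and 5925 in TGFB 1 to 4 and 6398, 7533, 6657 and 10262 in wildtype 1 to 4. Myl4 was lowest in wildtype 1, where Myl1 was second only to wildtype 2, and Mylpf peaked in wildtype 4. Groups overlapped for all 3, with a log2 difference of 0.20 (SE 0.37, limma adjusted p = 0.940) for Myl4, -0.16 (SE 0.25) for Myl1 and -0.17 (SE 0.19) for Mylpf. Without wildtype 1 the difference of Myl4 was -0.072. The contrast of Myl4 minus Myl1 was -2.40 in wildtype 1 and between -1.55 and -0.60 on the other 7 arrays.

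Troponin genes encode the calcium switch of the thin filament: troponin T binds tropomyosin, troponin I holds back the cross-bridge and troponin C binds calcium. Tnnt2, the cardiac form that embryonic skeletal muscle also makes, had signals of 1740.3, 752, 1416 and 535 in TGFB 1 to 4 and 312, 1102, 475 and 696 in wildtype 1 to 4. Its fast counterpart Tnnt3 had 3205, 2183, 2579 and 1075 in TGFB 1 to 4 and 2695, 3678, 2391 and 1406 in wildtype 1 to 4. Tnnt2 was lowest in wildtype 1 and its groups overlapped, since wildtype 2 lay above TGFB 2 and TGFB 4. It had the largest positive difference of the 36 members, 0.76 (SE 0.46, adjusted p = 0.783) with a 95% interval from -0.27 to 1.79, and 0.47 without wildtype 1. Tnnt3 was at its lowest in TGFB 4 and had a log2 difference of -0.19 (SE 0.38, limma adjusted p = 0.943), or 0.13 without TGFB 4. The contrast of Tnnt2 minus Tnnt3 was -0.88, -1.52, -0.86 and -0.98 in TGFB 1 to 4 and -3.05, -1.72, -2.29 and -0.998 in wildtype 1 to 4. All 4 TGFB arrays and wildtype 4 lay above wildtype 2 and wildtype 3 there, and wildtype 1 was the lowest array.

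The other fast troponins varied between their highest and lowest arrays by 2.45-fold for Tnni2 and 1.63-fold for Tnnc2. Signals of the fast troponin I gene Tnni2 were 1697, 1188, 2052 and 868 in TGFB 1 to 4 and 1536, 2126, 1702 and 1324 in wildtype 1 to 4. Those of the fast troponin C gene Tnnc2 were 6264, 5658, 6197 and 4503 in TGFB 1 to 4 and 5527, 6198, 5821 and 7322 in wildtype 1 to 4. TGFB 4 was the lowest array for both, as for Tnnt3, Acta1, Mylpf and Myl1. It was the lowest array for 12 of 36 members, beside 10.7% of all genes, and the trimmed mean of all probe sets was the same on every array. Tnni2 had -0.26 (SE 0.27, adjusted p = 0.874) and Tnnc2 -0.14 (SE 0.16, adjusted p = 0.882), with overlap of the groups in both.

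Fast fibres store and clear calcium through parvalbumin, a soluble calcium buffer, the pump Atp2a1 and the store protein calsequestrin (Casq1). Pvalb had signals of 21.1, 19.3, 37.5 and 18.9 in TGFB 1 to 4 and 699, 75.5, 58.4 and 49.5 in wildtype 1 to 4. Every TGFB array lay below every wildtype array, although the TGFB 3 value of 37.5 and the wildtype 4 value of 49.5 are close to each other and dim. Pvalb had a log2 difference of -1.76 (SE 0.68, limma adjusted p = 0.677), with a 95% interval from -3.30 to -0.21, and wildtype 1 alone was 9.26 times the next array. Without wildtype 1 the difference was -0.95. Atp2a1 had signals of 1477, 665, 594 and 423 in TGFB 1 to 4 and 1199, 1530.0, 769.5 and 174 in wildtype 1 to 4. Casq1 had 783, 636, 495 and 305 in TGFB 1 to 4 and 1248, 877, 664 and 295 in wildtype 1 to 4. Both were lowest in wildtype 4, the array with the highest 3'/5' ratio, whose part in this was not tested. Atp2a1 had a difference of -0.0093 (SE 0.64), which moved to -0.66 without wildtype 4 and to 0.35 without wildtype 2. Casq1 had a log2 difference of -0.37 (SE 0.43, limma adjusted p = 0.888), or -0.76 without wildtype 4 and -0.086 without wildtype 1.

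Actn3, the alpha actinin of fast Z-discs, and Mybpc2, the fast myosin-binding protein C, complete the adult fast genes. Actn3 was dim outside wildtype 1, with signals of 18.1, 37.1, 2.76 and 21.7 in TGFB 1 to 4 and 158, 36.8, 16.7 and 12.9 in wildtype 1 to 4. Mybpc2 had 57.1, 50.9, 26.1 and 32.5 in TGFB 1 to 4 and 79.8, 105, 54.8 and 9.26 in wildtype 1 to 4. The highest array of Actn3 was wildtype 1, at 4.26 times the next, and that of Mybpc2 was wildtype 2. Neither set of groups separated, with -0.69 (SE 0.56, adjusted p = 0.841) for Actn3 (-0.13 without wildtype 1) and -0.26 (SE 0.45, adjusted p = 0.932) for Mybpc2 (0.017 without wildtype 2). All 14 adult fast genes had a lower mean in TGFB, beside 52.6% of all genes, with differences from -1.76 (Pvalb) to -0.0093 (Atp2a1). The count of 14 held under quantile normalization and median centring, while with an offset of 1 Atp2a1 turned to 0.0022. These genes share the same arrays, and how far each is confined to adult fibres was not tested. Their median difference was -0.26. Leaving out 1 array left between 10 (without wildtype 2) and 14 of them lower. Wildtype 1 was the highest array for 6 of the 14 (Myh1, Myh2, Myh4, Actn3, Pvalb and Casq1), beside 16.3% of all genes. Its signals were 6.655 to 44.1 times the median of the other wildtype arrays for Myh1, Myh2, Myh4, Actn3 and Pvalb. They were 1.46 to 1.88 times for Casq1, Mybpc2 and Atp2a1. For Acta1, Mylpf, Myl1, Tnnt3, Tnni2 and Tnnc2 they were 0.849 to 1.33 times.

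Slow fibre genes peaked together in a TGFB array. Myh7, the beta and slow heavy chain, had signals of 854, 674, 3183 and 951 in TGFB 1 to 4 and 751, 1492, 1478 and 677 in wildtype 1 to 4. Its regulatory light chain Myl2 had 526, 74.8, 4116 and 1163 in TGFB 1 to 4 and 977, 1744, 1709 and 748 in wildtype 1 to 4, and the slow essential light chain Myl3 had 90.0, 69.3, 789 and 153 in TGFB 1 to 4 and 101, 130.3, 169 and 80.0 in wildtype 1 to 4. TGFB 3 was the highest array for all 3, and TGFB 2 the lowest, so that the TGFB group held both ends of the range and enclosed the wildtype values. Myh7 had a log2 difference of 0.16 (SE 0.49, limma adjusted p = 0.968) and Myl3 a log2 difference of 0.50 (SE 0.63, limma adjusted p = 0.899). Myl2 had a log2 difference of -0.82 (SE 0.98, limma adjusted p = 0.891) with an interval from -3.03 to 1.39. It turned to 0.17 without TGFB 2, while without TGFB 3 the differences were -0.33 for Myh7, -1.67 for Myl2 and -0.20 for Myl3.

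The slow troponins and myosin-binding protein peaked in the same array with smaller ranges. Tnnt1 had signals of 1484, 1017, 3023 and 1136 in TGFB 1 to 4 and 982, 1759, 1431 and 1186 in wildtype 1 to 4. Tnni1 had 1440.1, 774, 2589.7 and 1044 in TGFB 1 to 4 and 889, 1852, 1388 and 920.5 in wildtype 1 to 4. Tnnc1, the troponin C of slow and cardiac muscle, had 2209, 1034, 5153 and 1982 in TGFB 1 to 4 and 1284, 2481, 2159 and 2221 in wildtype 1 to 4. In each of them TGFB 3 was highest, with wildtype 2 next. Mybpc1, the slow myosin-binding protein C, had 1662, 787, 1863 and 686 in TGFB 1 to 4 and 877, 1409, 941 and 763 in wildtype 1 to 4, and its highest arrays were TGFB 3 and TGFB 1. The differences were 0.20 (SE 0.34), 0.13 (SE 0.38), 0.15 (SE 0.44) and 0.23 (SE 0.35) in that order, with limma adjusted p between 0.924 and 0.966. Without TGFB 3 all 4 turned negative, from -0.25 for Tnnc1 to -0.0071 for Mybpc1. Over the slow class, 6 of 7 genes had a higher mean in TGFB with all arrays and 0 of 7 without TGFB 3. TGFB 3 was the highest array for 7 of 7 slow genes, beside 8.68% of all genes, and for 10 of the 36 members.

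Cardiac muscle shares Myh7, Myl2, Myl3, Tnnc1, Actc1 and Tnnt2 with these lists, and its own markers were dim. Myh6, the alpha heavy chain of the heart and the neighbour of Myh7 in the genome, had signals of 14.1, 12.3, 82.9 and 27.3 in TGFB 1 to 4 and 35.8, 44.0, 10.5 and 61.6 in wildtype 1 to 4. It was highest in TGFB 3, as Myh7 was. Myl7, the atrial light chain, stayed at or below 43.7 on all arrays, and the cardiac troponin I gene Tnni3 at or below 37.4. The natriuretic peptide gene Nppa ran from 1.33 to 71.3. Over 7 cardiac markers, of which Myl2 and Tnnt2 are members here, the summed signal spanned 912 to 5678 on TGFB arrays and 1430 to 2983 on wildtype arrays, highest in TGFB 3. The other 5 markers alone summed to 51.4, 84.8, 145.6 and 56.6 in TGFB 1 to 4 and 140.2, 136.5, 127 and 98.9 in wildtype 1 to 4, so most of the full sum was that of the 2 members. Of the 7, 2 passed an unadjusted p under 0.05, beside 7.08% of all genes, and both were lower in TGFB. They were Nppa (-1.28, SE 0.36, limma adjusted p = 0.639) and the related peptide gene Nppb (-0.58, SE 0.23, limma adjusted p = 0.677). Both were dim, with Nppb at or below 18.6 on all arrays and Nppa at or below 10.2 on the TGFB arrays. The part of cardiac muscle in the slow genes was not tested.

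Genes used by all fibre types showed no common direction. Ttn, the giant spring titin, had signals of 4949.8, 3333, 5334 and 2678 in TGFB 1 to 4 and 2502, 5255, 4805 and 3273 in wildtype 1 to 4. Neb, the nebulin ruler of the thin filament, had 1731, 1006, 1473 and 744 in TGFB 1 to 4 and 634, 1689, 838 and 724 in wildtype 1 to 4. Actn2, the alpha actinin of all Z-discs, had 2265, 1112, 1835 and 669.8 in TGFB 1 to 4 and 1022, 1774, 1143 and 791 in wildtype 1 to 4. Wildtype 1 was the lowest array for Ttn and Neb, and TGFB 4 for Actn2. The differences were 0.047 (SE 0.30, adjusted p = 0.986) for Ttn, 0.38 (SE 0.35, adjusted p = 0.860) for Neb and 0.23 (SE 0.39, adjusted p = 0.932) for Actn2. Without wildtype 1 that of Ttn was -0.15, and without TGFB 1 that of Actn2 was -0.027.

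Myoglobin, the oxygen store of oxidative fibres, had the largest difference of the members. Mb signals were 206, 70.8, 632 and 351 in TGFB 1 to 4 and 2781, 851, 750.0 and 527 in wildtype 1 to 4. Wildtype arrays held the 3 highest values, while TGFB 3 lay above wildtype 4, so the groups overlapped. Mb had a log2 difference of -1.95 (SE 0.66, limma adjusted p = 0.668) with a 95% interval from -3.44 to -0.45. The difference was -1.45 without wildtype 1 and -1.42 without TGFB 2, and -0.99 when the gene's other, dim probe set was averaged in. Ckm, the muscle creatine kinase that buffers ATP, had signals of 4564, 1754, 3350.0 and 1694 in TGFB 1 to 4 and 3201, 3899.9, 2657 and 1679.7 in wildtype 1 to 4. It had -0.073 (SE 0.37, adjusted p = 0.984), and the groups spanned the same range. Mb did not share the array order of Ckm: the ratio of wildtype 1 to the highest other array was 3.27 for Mb and 0.701 for Ckm.

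The calcium release channel Ryr1 and the acetylcholine receptor subunit Chrna1 carry the nerve signal into the fibre. Ryr1 had signals of 668, 281, 368 and 148 in TGFB 1 to 4 and 248, 559, 305 and 181 in wildtype 1 to 4. Chrna1 had 335, 150.4, 150.4 and 119 in TGFB 1 to 4 and 221, 349, 142 and 141 in wildtype 1 to 4. Both were brightest in TGFB 1 and wildtype 2 and lowest in TGFB 4, with 0.10 (SE 0.45, adjusted p = 0.980) and -0.18 (SE 0.36, adjusted p = 0.945). Without TGFB 1 the difference of Ryr1 was -0.24, and without wildtype 2 that of Chrna1 was 0.078.

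Myogenin (Myog) drives myoblasts into fibres, MyoD (Myod1) commits them to muscle, and Chrng encodes the gamma subunit of the fetal acetylcholine receptor. Myog had signals of 519, 203, 409 and 199.7 in TGFB 1 to 4 and 106, 482, 286 and 283 in wildtype 1 to 4. Myod1 had 99.7, 60.7, 54.2 and 63.3 in TGFB 1 to 4 and 71.4, 106, 83.1 and 20.3 in wildtype 1 to 4. Chrng had 122, 73.6, 63.2 and 37.7 in TGFB 1 to 4 and 37.6, 121, 39.0 and 54.4 in wildtype 1 to 4. Wildtype 1 was the lowest array for Myog, wildtype 1 and TGFB 4 were level at the low end for Chrng, and wildtype 4 was lowest for Myod1, while TGFB 1 and wildtype 2 were the 2 highest for all 3. The groups overlapped in each case. The differences were 0.25 (SE 0.45, adjusted p = 0.937) for Myog, 0.091 (SE 0.36, adjusted p = 0.977) for Myod1 and 0.22 (SE 0.36, adjusted p = 0.931) for Chrng. That of Myog was -0.14 without wildtype 1, that of Chrng -0.011 without TGFB 1, and that of Myod1 -0.28 without wildtype 4.

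The windows of Myog and Chrng are shown because their genes peaked in the same 2 arrays and differ in motif content. They lie on the plus strand of GRCm38.p6, at chr1:134289754-134290053 for Myog and chr1:87205561-87205860 for Chrng.
Myog: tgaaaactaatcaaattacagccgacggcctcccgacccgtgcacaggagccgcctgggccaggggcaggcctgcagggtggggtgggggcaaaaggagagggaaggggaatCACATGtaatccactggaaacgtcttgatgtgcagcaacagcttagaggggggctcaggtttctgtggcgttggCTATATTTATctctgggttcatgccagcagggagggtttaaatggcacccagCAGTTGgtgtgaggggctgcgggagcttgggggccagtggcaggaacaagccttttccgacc
Chrng: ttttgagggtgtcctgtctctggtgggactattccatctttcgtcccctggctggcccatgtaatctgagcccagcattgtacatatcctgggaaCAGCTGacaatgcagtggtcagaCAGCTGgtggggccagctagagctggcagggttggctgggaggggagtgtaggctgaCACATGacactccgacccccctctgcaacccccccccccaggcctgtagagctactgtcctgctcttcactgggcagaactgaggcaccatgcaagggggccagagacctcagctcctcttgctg
Myog holds 2 E-boxes and a MEF2 box at position -64, and Chrng holds 3 E-boxes, of which 2 are CAGCTG at -155 and -132. Neither window holds a TATA box or a CArG box.

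The balance between isoform classes was then taken within each array, as the mean log2(signal + 16) of one class minus that of another, and read only between arrays. Developmental minus adult fast isoforms was 2.02, 1.53, 2.02 and 1.59 in TGFB 1 to 4 and -0.67, 1.46, 1.21 and 1.92 in wildtype 1 to 4. The TGFB mean was 1.79 ± 0.27 (SD, n = 4) and the wildtype mean 0.98 ± 1.14 (SD, n = 4), a difference of 0.81. Wildtype 4 lay within the TGFB values and wildtype 1 far below all other arrays, and without wildtype 1 the difference was 0.26. Slow minus adult fast isoforms was 0.57, -0.19, 2.36 and 1.23 in TGFB 1 to 4 and -1.11, 0.63, 0.86 and 0.97 in wildtype 1 to 4. Its means were 0.99 ± 1.08 (SD, n = 4) in TGFB and 0.34 ± 0.98 (SD, n = 4) in wildtype arrays, a difference of 0.66 that was 0.17 without wildtype 1 and 0.20 without TGFB 3. These contrasts describe the members and carry no test. Among the wildtype arrays the 3'/5' ratio ran against the mean of the adult fast class, though not against each of its genes. The mean log2(signal + 16) of the 14 adult fast genes was 10.59, 9.65, 9.25 and 8.52 in wildtype 1 to 4. There the Gapdh 3'/5' ratio was 2.19, 2.35, 4.31 and 6.41. Mylpf and Tnnc2, of the same class, were instead highest in wildtype 4, at signals of 10262 and 7322. On the TGFB arrays the means were 8.50 to 9.21 and the ratios 2.88 to 3.55. Wildtype 1 had the lowest Gapdh and Actb ratios of the 8 arrays and the lowest median signal, 26.3, and wildtype 4 the highest Gapdh ratio. The part of RNA integrity in the adult fast values and in these contrasts was not tested.

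**Figure D3:**
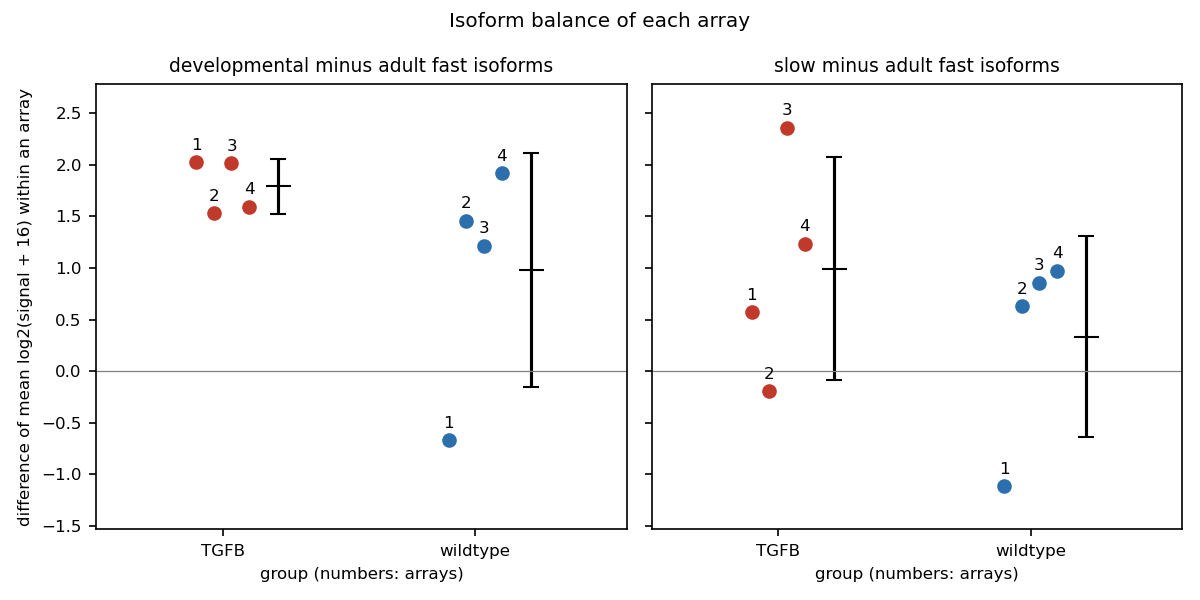
For each array (numbered point), the mean log2(signal + 16) of the 6 developmental (left) or 7 slow (right) isoforms minus that of the 14 adult fast isoforms; bars give the mean ± SD of the 4 arrays of a group. Wildtype 1 is the lowest array in both panels, at -0.67 and -1.11, and TGFB 3 is the highest on the right, at 2.36.

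Contrasts were also taken within single pairs of isoforms, and wildtype 1 was the lowest array in 9 of 11 pairs. These pairs share arrays and some genes. Myh3 minus Myh1 was 5.93, 3.74, 6.52 and 6.71 in TGFB 1 to 4 and -0.10, 4.72, 4.45 and 7.21 in wildtype 1 to 4. Myh7 minus Myh2 was 2.44, 3.40, 3.20 and 2.48 in TGFB 1 to 4 and -1.97, 1.55, 1.69 and 2.67 in wildtype 1 to 4. In both, wildtype 1 was the lowest array. For Myh7 minus Myh2 all 4 TGFB arrays lay above wildtype 2 and wildtype 3, with wildtype 4 among them, and for Myh3 minus Myh1 the groups overlapped. The contrast of Myh3 minus Myh8, both developmental, ranged from -0.44 to 1.15, with TGFB 4 and wildtype 4 highest and wildtype 1 at -0.068 inside the range. In that pair and in Tnnc1 minus Tnnc2, whose second gene is an adult fast one, TGFB 2 was the lowest array, at -0.44 and -2.43.

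Set side by side, the classes differed in how far the members spread over the arrays. The median ratio of the highest to the lowest signal was 3.15 for developmental, 6.52 for adult fast, 4.72 for slow and 2.93 for shared genes. These ratios are of signals without the offset, so values near 0 enlarge them. The adult fast class was split. Ratios were 1.49 to 4.24 for Acta1, Mylpf, Myl1, Tnnt3, Tnni2, Tnnc2 and Casq1. For its other genes they ran from 8.81 (Atp2a1) to 652 (Myh4, with a lowest signal of 0.510). A difference beyond 1 in size, on the log2 scale, was seen for 4 members (Myh1, Myh2, Pvalb and Mb), beside 2.23% of all genes, and for 1 (Mb) without wildtype 1. All 4 were lower in TGFB. In the developmental class 5 of 6 genes had a higher mean in TGFB, with a median of 0.20, under the given scaling, quantile normalization and median centring, and 3 of 6 without wildtype 1. Wildtype 1 was the lowest array for 5 of the 6, beside 15.2% of all genes. For Chrng, which is among the 5, it was level with TGFB 4, at signals of 37.64 and 37.66. The number of members at an unadjusted p under 0.05 was 2 with all arrays, 1 without TGFB 1 or without TGFB 2, 4 without wildtype 2 and 5 (13.9%) without wildtype 4. Over all genes the shares were 7.08%, 5.27% or 6.26%, 6.69% and 12.7% in that order, so the rise without wildtype 4 was not confined to the members.

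**Figure D4:**
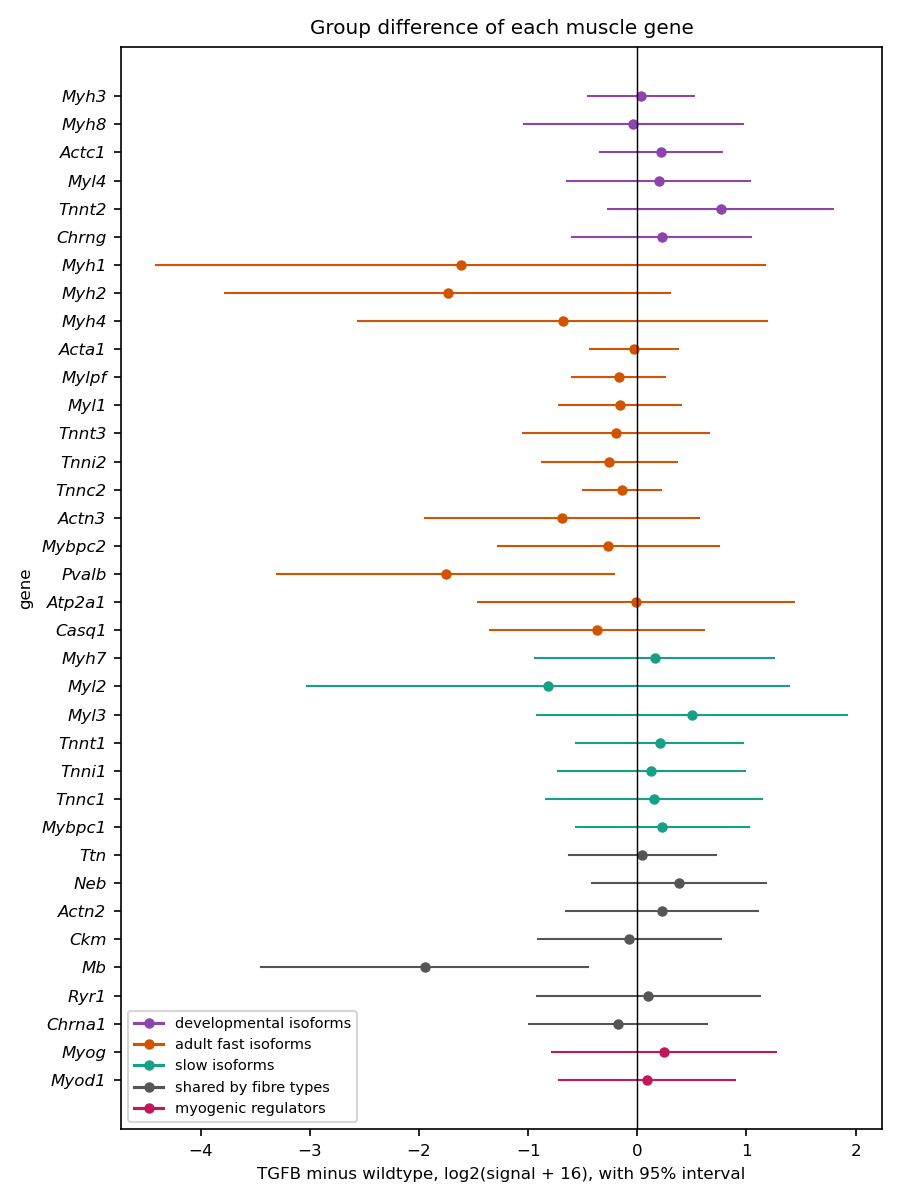
Difference of mean log2(signal + 16), TGFB minus wildtype, for each of the 36 members (point), with the 95% interval of the limma fit (line) and colours for the isoform class. The intervals of Pvalb and Mb lie below 0 before adjustment, those of the other 34 members include it, and the widest belongs to Myh1, from -4.41 to 1.17.

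Wider lists of muscle genes were followed to place the members. Of 33 measured further sarcomere and Z-disc genes, limma called 0 at adjusted p and 0 at unadjusted p under 0.05, with 12 higher and 21 lower means and a median difference of -0.057. The 4 genes of smallest p were Myh7b, a slow-type heavy chain gene (0.36, SE 0.18), the titin cap gene Tcap (-0.74, SE 0.38), the tropomyosin gene Tpm3 (0.50, SE 0.30) and the leiomodin gene Lmod2 (-0.56, SE 0.36). Myh7b was dim, with signals of 55.9, 55.7, 92.0 and 55.8 in TGFB 1 to 4 and 37.2, 45.6, 47.7 and 54.6 in wildtype 1 to 4, and its groups did not overlap. The difference of Tpm3 was -0.020 when all its probe sets were averaged. Of a list of 5 extraocular and cardiac myosin genes, 3 were analysed, and none was called at either threshold. The 3 were Myh6, Myl7 and the non-muscle chain gene Myh14 (-0.56, SE 0.39). Myh13 and Myh15 were not analysed, so the list gives no result for extraocular myosins.

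Calcium and synapse genes gave the same null count. Of 17 calcium release and triad genes, 0 were called at adjusted p and 0 at unadjusted p under 0.05, with 6 higher and 11 lower and a median of -0.068. The smallest p were those of sarcolipin (Sln, -0.57), triadin (Trdn, -0.56), phospholamban (Pln, -0.98) and the junctophilin gene Jph1 (0.20). Sln and Pln both restrain the calcium pump. Of 9 neuromuscular junction genes, 0 were called at either threshold and 7 had higher means, with a median of 0.099. The smallest p were those of acetylcholinesterase (Ache, 0.63), the agrin receptor Lrp4 (0.29), rapsyn (Rapsn, -0.55) and Colq (0.38), the collagen tail of acetylcholinesterase. The adult receptor subunit Chrne, named after its values were seen, was dim on all arrays, with signals of 0.490, 2.19, 8.18 and 8.35 in TGFB 1 to 4 and 26.4, 4.77, 3.00 and 4.01 in wildtype 1 to 4. It replaces the Chrng product in mature synapses, and its brightest array was wildtype 1, where Chrng was as low as in TGFB 4.

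Energy genes of muscle gave no call. Of 20 genes, 0 passed at adjusted p and 0 at unadjusted p under 0.05, while 15 had a lower and 5 a higher mean, with a median of -0.14. The heart and muscle forms of cytochrome oxidase subunits, Cox8b and Cox7a1, had -0.82 (SE 0.39) and -0.75 (SE 0.43). Cox8b signals were 329, 156, 349 and 159 in TGFB 1 to 4 and 846, 394, 322 and 286 in wildtype 1 to 4, and wildtype 1 was its highest array, as it was for Cox7a1 and the fatty acid binding gene Fabp3 (-0.60). Without wildtype 1 the differences of Cox8b and Cox7a1 were -0.49 and -0.32. Lactate dehydrogenase A (Ldha), which is not particular to muscle, had 0.30. For 7 of the 20 genes wildtype 1 was the highest array, beside 16.3% of all genes.

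Of 19 measured muscle stem cell and myoblast genes, 0 were called at either threshold, with 9 higher and 10 lower and a median of -0.012. The myoblast fusion gene Mymk (0.34), Mef2a (0.32), Six4 (0.31) and the adhesion gene Ncam1 (-0.35) had the smallest p. The satellite cell factor Pax7, named after its values were seen, was between 36.5 and 77.8 on all arrays. Mymx, the second fusion gene and also named afterwards, had signals of 495, 179, 290.0 and 208 in TGFB 1 to 4 and 51.4, 447, 169 and 310.2 in wildtype 1 to 4, with wildtype 1 lowest, as for Myog. Of 8 dystrophin complex genes, 0 were called at either threshold and 7 were lower, with a median of -0.16. Those of smallest p were utrophin (Utrn, -0.26), sarcospan (Sspn, -0.33) and the sarcoglycan genes Sgca (-0.40) and Sgcb (0.18). Sgcb was the higher one and turned to -0.090 with all probe sets averaged.

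Smooth muscle genes, the other contractile programme, were lower for 9 of 10, beside 52.6% of all genes, with a median of -0.40. Limma called 0 at adjusted p, and 2 at unadjusted p under 0.05, beside 7.08% of all genes. They were the myosin light chain kinase gene Mylk (-1.08, SE 0.27, adjusted p = 0.623) and calponin (Cnn1, -1.40, SE 0.54, adjusted p = 0.677). Mylk had signals of 828, 419.6, 566 and 486 in TGFB 1 to 4 and 1723, 1219, 1228 and 791 in wildtype 1 to 4, with TGFB 1 above wildtype 4. Smooth muscle myosin Myh11 (-1.78) and the light chain Myl9 (-0.48) followed. The smooth muscle actin gene Acta2 and Tagln, named after their values were seen, had -0.077 (SE 0.19) and 0.42 (SE 0.47). Tagln was the 1 gene of the list with a higher mean. Summed signals of the list overlapped between groups, at 5995.5 to 11331 on TGFB and 9450 to 12188 on wildtype arrays. For 5 of the 10, wildtype 1 was the highest array, beside 16.3% of all genes.

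Some markers of other tissues moved with the arrays that carried the muscle patterns, and others did not. Keratocyte markers, 6 measured, had their highest sum in wildtype 4, at 30644, with 24646 in wildtype 1. Adipocyte markers, 2 measured, had theirs in TGFB 2, at 1680, with 922 in wildtype 1 and 861 in TGFB 3. All 4 measured retina markers were highest in wildtype 1, where they summed to 2014, against 46.8 to 261 on the other wildtype and 45.8 to 55.1 on the TGFB arrays. Most of that sum was arrestin (Sag, 1892 in wildtype 1). Pigment cell and iris markers, 6 of 6 measured, summed to 27347 in wildtype 1, 13829 to 23337 on the other wildtype and 3025 to 14060 on the TGFB arrays, and 4 of the 6 were highest in wildtype 1. Blood vessel and pericyte markers, 5 of 5 measured, summed to 3203 in wildtype 1, 1305 to 1852 on the other wildtype and 822 to 1609 on the TGFB arrays. Most of the sum in wildtype 1 was Rgs5, at 2472, the 1 gene of the 5 that was highest there. Schwann cell markers, 3 measured, were all highest in wildtype 1, where they summed to 3317. They summed to 2114.5 to 2653 on the other wildtype and 1930 to 2111 on the TGFB arrays. Most of the sum in wildtype 1 was Pmp22, at 2645. The 6 corneal epithelium markers, all measured, summed to 13333 to 18047 on TGFB and 8752 to 20497 on wildtype arrays, with 20388 in wildtype 1. Of these 6, 1 was highest in wildtype 1, the aldehyde dehydrogenase gene Aldh3a1, and 1 was lowest there, the keratin gene Krt14 at 1274. Aldh3a1 had signals of 52.5, 66.7, 72.8 and 129 in TGFB 1 to 4 and 4060.1, 167, 315 and 70.5 in wildtype 1 to 4. Erythroid markers, 2 measured, summed to 559 in TGFB 3, the array where the slow genes peaked. They summed to 52.7 to 252 on the other TGFB and 57.1 to 302 on the wildtype arrays. Most of the sum in TGFB 3 was Alas2, at 557, while Hba-a1 was lowest there. The part of these tissues in the adult fast values of wildtype 1 or the slow values of TGFB 3 was not tested.

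Cornified epidermis markers set 3 other arrays apart. The sum of 7 such markers was 38191 in TGFB 1, 45220 in TGFB 2 and 24637 in wildtype 2, and 712 to 1551 on the remaining 5 arrays. By the probe sets used, TGFB 1 and wildtype 2 were the 2 highest arrays for Myog, Myod1, Chrng, Ryr1 and Chrna1, whereas TGFB 2 was not among them. A second Ryr1 probe set peaked in TGFB 3 instead. A choice made with the data known was to keep the 5 arrays that remain without those 3. Over them, 14 of 14 adult fast genes had a lower and 7 of 7 slow genes a higher mean in TGFB. TGFB 3 was 1 of the 2 TGFB arrays there, and wildtype 1 was among the wildtype arrays. Without wildtype 1 and wildtype 4, also a choice made with the data known, 13 of 14 adult fast, 6 of 7 slow and 5 of 6 developmental genes had a lower mean in TGFB. The share of all genes with a lower mean was not counted for these choices of arrays. Lens markers summed lowest on the same 3 arrays, at 63.6 in TGFB 1, 93.4 in TGFB 2 and 146 in wildtype 2. They summed to 787 to 24085 on the remaining 5 arrays. The part of these tissues in the muscle values was not tested.

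Of 23 further probe sets of members, 10 had the same highest array as the one used. Of the 12 that reached a signal of 100 on some array, 8 did. Among the rest, a second Tnni2 probe set peaked in TGFB 3 where the one used peaked in wildtype 2, and 2 of Ttn peaked in wildtype 2 and wildtype 3 where the one used peaked in TGFB 3. A second Ryr1 probe set peaked in TGFB 3, at 124, where the one used peaked in TGFB 1. It gave 83.2 in TGFB 1, 77.2 in wildtype 3 and 68.9 in wildtype 2. The second Myh1 probe set gave 3708 in wildtype 1 and 21.9 to 316 elsewhere, while the third stayed below 2 on all arrays. A second Tnnt2 probe set gave 288 in wildtype 1 and 1540.4 in TGFB 1, its highest array. Both further Myl3 probe sets were highest in TGFB 3, at 511 and 611. A second Mybpc1 probe set gave 1391 in TGFB 3 and only 140 in wildtype 1, and the third gave 311 and 49.1 there. The second Mb probe set stayed at or below 11.2 and showed no peak in wildtype 1. Which transcripts each probe set detects was not tested.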

How the data were processed

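RNA of 8 cornea arrays, 4 per group, was measured as 45101 probe set intensities per array. The deposited intensities are on a linear scale. Which tool made them is not given in the sources used here. Since the 2% trimmed mean was 150 on every array, arrays were not normalized further, and median signals ran from 26.3 to 34.4. No pair of arrays held identical values, and the number of arrays limits the precision.

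Values were taken as log2(signal + 16), a scale on which changes of dim genes come out too small, without the 64 control probe sets. A platform annotation of 2016 gave 1 symbol to 34958 probe sets, several to 932 and none to 9160, and current symbols came from a RefSeq table of GRCm38.p6 for 34754 of them, through Entrez IDs. Each gene is its probe set with the highest mean log2(signal + 16) over all arrays. The comparison used lmFit and eBayes of limma 3.58.1 (R 4.3.3, total degrees of freedom 9.03), with p-values adjusted after Benjamini-Hochberg over 18193 genes. The step was also run on simulated data with independent normal noise in each gene. Shifts of many genes together on 1 array were not simulated. Promoter windows are RefSeq's, and 5 members had none.

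All members are named, with the 4 genes of smallest p in each further list and 4 cornea markers. Chrne, Pax7, Mymx, Sag, Rgs5, Krt14, Pmp22, Alas2, Hba-a1, Nppa, Nppb, Tnni3, Acta2 and Tagln were named after their values were seen. Members and lists were chosen with earlier results of these data known. Alternatives were median centring, quantile normalization, an offset of 1 or of 32, dropping probe sets with means below percentile 40, averaging a gene's probe sets, testing each probe set separately, a trend with robust eBayes, an unadjusted threshold, and each array left out. Leaving out the 3 arrays with cornified markers, or wildtype 1 and wildtype 4, was added after seeing the data. Some genes of the lists were not analysed here.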

Additional observations from a re-analysis of the deposited data

Results flagged for a closer look

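In a group of 4 arrays, a value was picked out when its gap to the nearest other array exceeded 0.829 of the group's range (Dixon's 95% value), which chance gives in about 1 of 20 groups. Of 150 groups checked, 6 were picked out, and 3 of the 72 groups of members were among them. Myh3 had its lowest wildtype signal in wildtype 1, at 3669 against 5762 to 6107 in the other 3. Pvalb had its highest wildtype signal in the same array, at 699 against 49.5 to 75.5, and its highest TGFB signal in TGFB 3, at 37.5 against 18.9 to 21.1. Slow minus adult fast isoforms was lowest in wildtype 1, at -1.11 against 0.63 to 0.97 in the other wildtype arrays. Outside the members, Myh7b was highest in TGFB 3, at a signal of 92.0 against 55.7 to 55.9, and the smooth muscle myosin gene Myh11 was lowest in wildtype 4, at 27.3 against 387 to 504. Each of these rests on a single array.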

How the results depend on the processing

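No paired analysis was possible because the labels give the groups no shared replicate numbers. Limma called 0 genes in every planned setting with adjusted p except without wildtype 4 (0 to 2 genes over the arrays left out in turn), 3 without wildtype 1 and wildtype 4, and 1288 at an unadjusted p under 0.05. No member was called in any setting with adjusted p, and 2 were at the unadjusted threshold. The number of members with a lower mean in TGFB was 19, from 12 (without wildtype 2) to 27 (without TGFB 3) with 1 array left out, and 33 without wildtype 1 and wildtype 4. Developmental minus adult fast isoforms differed by 0.26 to 1.12, and slow minus adult fast isoforms by 0.17 to 1.05, with 1 array left out. The sign held in all settings for 11 members and turned in some for 25, in 6 of these only with 1 array left out. Without wildtype 1 and wildtype 4 the turned log2 differences were Myh3 -0.11, Actc1 -0.018, Myl4 -0.14, Chrng -0.028, Myh4 0.33, Myh7 -0.36, Tnnt1 -0.071, Tnni1 -0.28, Tnnc1 -0.073, Mybpc1 -0.016, Ttn -0.36, Neb -0.017, Actn2 -0.099, Ryr1 -0.35, Myog -0.27, Myod1 -0.39, Myl7 -0.21 and Myh6 0.13. Without TGFB 1, TGFB 2 and wildtype 2 they were Myl2 1.01, Ryr1 -0.028, Myh6 0.46 and Ncam1 0.024. With the mean of all probe sets they were Ckm 0.026, Tpm3 -0.020 and Sgcb -0.090, and with an offset of 1 Atp2a1 0.0022. With 1 array left out, the ranges of those that turned were Myh3 -0.13 to 0.14, Myh8 -0.30 to 0.35, Myl4 -0.072 to 0.44, Chrng -0.011 to 0.52, Myh4 -1.16 to 0.30, Acta1 -0.14 to 0.078, Tnnt3 -0.45 to 0.13, Mybpc2 -0.74 to 0.017, Atp2a1 -0.66 to 0.35, Myh7 -0.33 to 0.41, Myl2 -1.67 to 0.17, Myl3 -0.20 to 0.88, Tnnt1 -0.13 to 0.39, Tnni1 -0.19 to 0.38, Tnnc1 -0.25 to 0.51, Mybpc1 -0.0071 to 0.47, Ttn -0.15 to 0.23, Actn2 -0.027 to 0.55, Ckm -0.34 to 0.13, Ryr1 -0.24 to 0.45, Chrna1 -0.47 to 0.078, Myog -0.14 to 0.54, Myod1 -0.28 to 0.30 and Myh6 -0.59 to 0.0062. The cause was not tested. Signals below 16, which 34.9% to 40.9% of probe sets had, limit what the dim members Myh4, Actn3, Mybpc2 and Pvalb can show, and 4 arrays per group leave intervals as wide as that of Myh1, from -4.41 to 1.17.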
